A study of Mus musculus with 12 samples.

Results

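The genes described here are 8 genes of arginine, urea cycle and polyamine metabolism, taken by symbol from the 32587 gene rows measured in mouse small-intestinal organoids: Cps1, Otc, Oat, Ass1, Asl, Arg2, Odc1 and Sat1. All 8 were present in every library and passed the filter on low values, which kept 11952 rows with at least 1 TPM (a length-scaled share of all transcripts in a library) in at least 3 libraries. The genes were put together with results of these libraries known, because Arg2 had been seen to be higher in deoxycholic acid than in chenodeoxycholic acid. That contrast is therefore only described. Organoids are epithelial cultures grown from intestinal stem cells, and these were of wild-type genotype and came from the duodenum, per the labels. Expression was measured in 12 libraries, 3 from each treatment: the primary bile acids cholic acid (CA) and chenodeoxycholic acid (CDCA), the secondary bile acid deoxycholic acid (DCA), and dimethyl sulfoxide (DMSO), the vehicle. CDCA lacks a hydroxyl group that CA carries on its C ring, and DCA lacks one that CA carries on its B ring. Each acid is labelled 50 mmol/L, which is far above usual bile acid doses, so the unit may be wrong. The exposure is 96 hours in one field and 2 days in another. Every library is also labelled with 2 days of preculture, and whether the 96 hours include these was not settled here. Age, sex and strain of the mice were not given in the sources used here. Whether the 3 libraries of a treatment had separate animals or cultures behind them is not stated, so p-values measure the spread between these libraries, which may be technical.

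Enterocytes of the small intestine make citrulline, the precursor from which other organs make arginine. In their mitochondria, carbamoyl phosphate from Cps1 is joined by Otc to ornithine, which Oat can supply from glutamate or proline. Ass1 and Asl turn citrulline into arginine, and arginase splits arginine into urea and ornithine. Ornithine is also the substrate of Odc1, the first step towards the polyamines putrescine, spermidine and spermine, which dividing crypt cells need. Sat1 acetylates polyamines and so starts their breakdown and export.

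The libraries carried the RNA of intestinal epithelium. The epithelial markers Epcam, Vil1, Cdh1, Krt8, Krt19 and Cdx2 summed to 2834 to 3525 TPM, and the proximal markers Gata4, Pdx1 and Onecut2 were present in every library. Markers of 4 other tissues were low: 7 immune markers summed to at most 4.98 TPM, 6 mesenchymal markers to 6.07 TPM, 3 endothelial markers to 0.744 TPM and 4 hepatocyte markers to 5.14 TPM, and 4 pancreatic acinar markers were listed at 0 throughout. A pair of libraries stood apart from their groups. Libraries were placed on an axis set to 0 at the mean of DMSO and 1 at that of DCA, over the tested genes without these 8. The library being placed was left out of these means. DMSO replicate 1 lay at 0.331 against 0.0157 and -0.0278 for the other DMSO libraries. CDCA replicate 3 lay at 0.522 against 0.101 and 0.171 for the other CDCA libraries. Results that rest on these libraries are given with and without them. Mitochondrially encoded RNA took 11.2 to 12.7% of TPM in DCA and 14.6 to 20.1% in DMSO, and TPM values are shares of a total. Read depth is not kept in TPM, so no counting error can be given. In such bulk RNA, fewer cells of a type and less RNA per cell cannot be told apart.

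TPM can be compared between genes, and the 8 genes covered a wide range of levels. Oat was by far the most abundant, at 748 to 1754 TPM over the 12 libraries. Cps1 came next at 195 to 341 TPM, followed by Sat1 at 113 to 156 TPM and Odc1 at 82.3 to 118 TPM. Otc at 34.7 to 66.8 TPM and Asl at 29.0 to 42.2 TPM overlapped in DMSO, where their means of 42.5 ± 8.10 and 36.3 ± 6.76 TPM (SD, n = 3) differed by less than their spread. Ass1 was the lowest, at 12.2 to 14.5 TPM, and its levels varied least, with a highest value 1.19 times the lowest. Arg2 varied most, from 16.5 to 162 TPM, a range of 9.77 times. It thus moved from below Otc in the DMSO mean to the level of Sat1 in DCA, where Arg2 was at 148 ± 21.8 TPM and Sat1 at 148 ± 2.73 TPM (SD, n = 3).

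**Figure D1:**
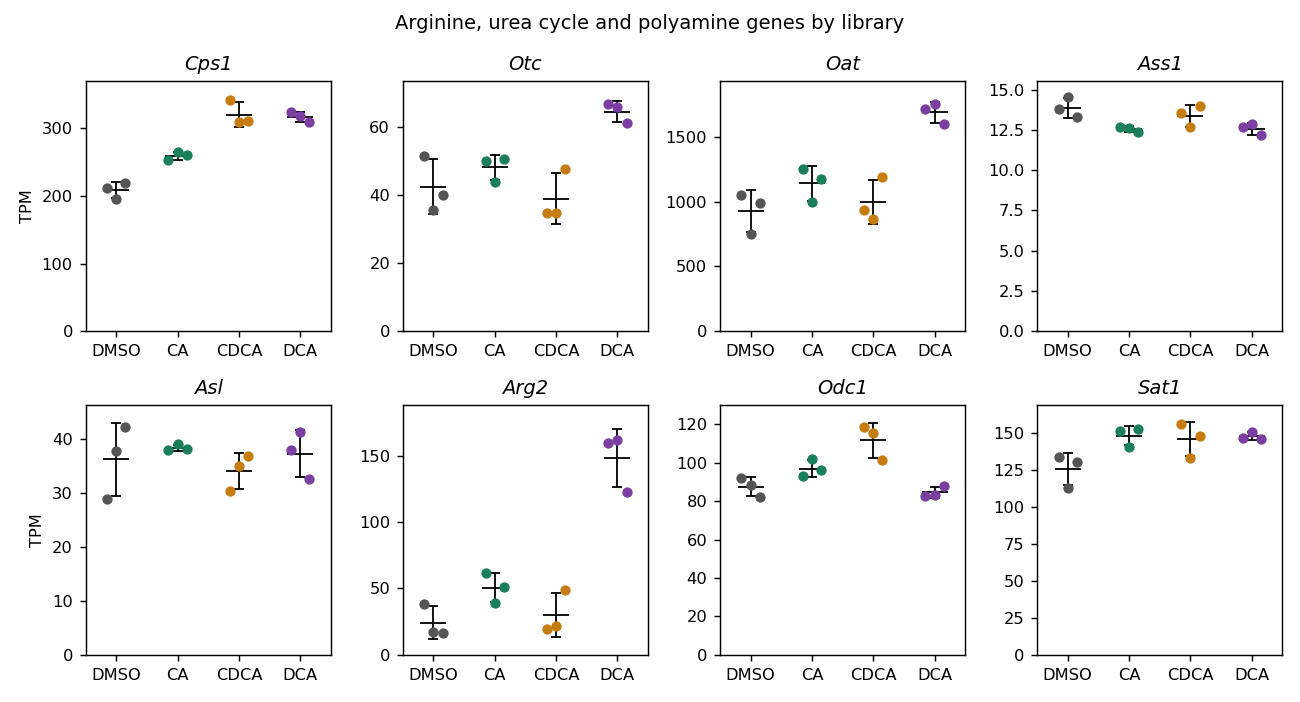
TPM (linear axis from 0) of the 8 genes in each library, 1 panel per gene, with coloured points for the 3 libraries of DMSO, CA, CDCA and DCA in the order of replicates 1, 2 and 3 and black marks for mean ± SD. Arg2, Oat and Otc were highest in the 3 DCA libraries, Cps1 was higher in all acid-treated libraries than in DMSO, and Ass1 stayed between 12.2 and 14.5 TPM.

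Differences between groups were tested with limma on log2(TPM + 1) in 1 model over the 12 libraries, with Benjamini-Hochberg adjustment over the 11952 tested genes at 0.05. Differences are given on that log2 scale, which understates changes of low genes, with 95% confidence intervals (CI). In DCA against DMSO, 5 of the 8 genes rose (Arg2, Oat, Otc, Cps1 and Sat1) and 0 fell. Of all tested genes, 38.0% passed in that comparison, 18.8% higher and 19.2% lower. Arg2 was chosen on the DCA and CDCA libraries, so counts that include it with either acid are not independent of that choice. In CDCA against DMSO 1 of the 8 rose, Cps1, where 0.594% of all genes passed and 0.510% were higher. In CA against DMSO 0 of the 8 passed in limma, where 0.577% of all genes did. There 4 of the 8 had an unadjusted p under 0.05, beside 1763 of the 11952 tested genes. Between the acids, 3 of the 8 were higher in DCA than in CA (Arg2, Oat and Cps1), where 14.7% of all genes passed, 5.79% higher and 8.94% lower. In CDCA against CA 0 of the 8 passed in limma, where 0.0335% of all genes did. There 4 of the 8 had an unadjusted p under 0.05, beside 861 of the 11952 tested genes. Against DMSO, the median difference of the 8 genes was 0.22 in CA, 0.16 in CDCA and 0.42 in DCA, beside 0.028, 0.018 and -0.021 over all tested genes. These 3 comparisons share the DMSO libraries.

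**Figure D2:**
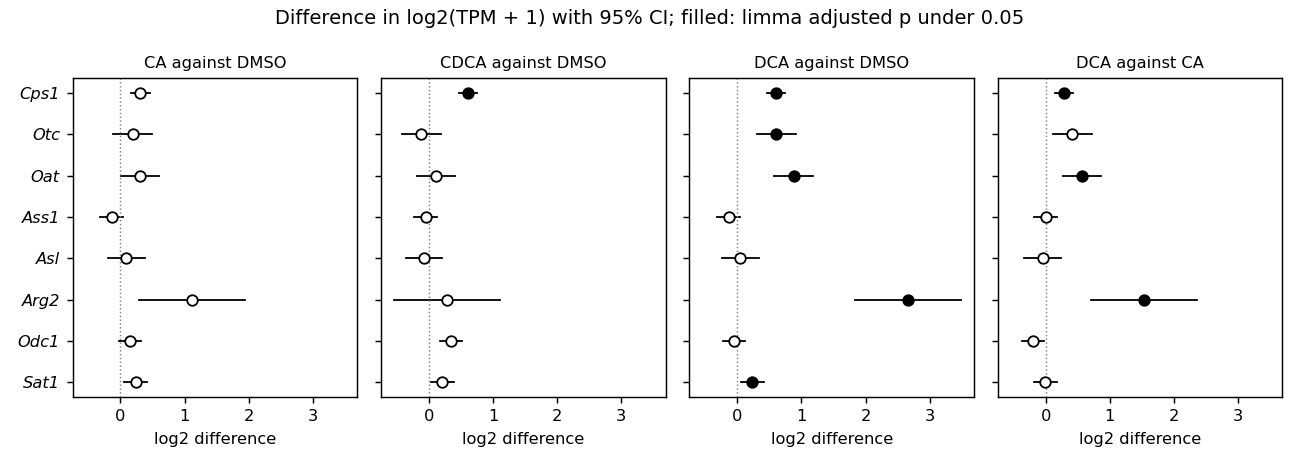
Difference in log2(TPM + 1) between the groups named above each panel (first minus second), with 95% CI as lines and filled points where the limma adjusted p was under 0.05. Arg2 had the widest intervals and, except in CDCA against DMSO, the largest differences, Cps1 lay above 0 in all 4 panels, and Ass1 and Asl had intervals that include 0 in each.

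Cps1, carbamoyl phosphate synthetase of the mitochondrial matrix, stood at 211, 195 and 219 TPM in the DMSO libraries. It was at 253, 264 and 260 TPM in CA, at 341, 308 and 310 TPM in CDCA and at 324, 318 and 309 TPM in DCA. Each acid-treated library thus lay above each DMSO library, and CDCA and DCA lay above CA without overlap. Cps1 rose by 0.62 (CI 0.47 to 0.76, limma adjusted p = 0.000705) in CDCA and by 0.60 (CI 0.46 to 0.75, limma adjusted p = 6.35e-05) in DCA against DMSO, which is 1.54 and 1.52 times the DMSO mean. Both calls held in all 20 alternatives run. CA differed from DMSO by 0.31 (CI 0.17 to 0.46, limma adjusted p = 0.0565). That passed without DMSO replicate 3 (limma adjusted p = 0.0462), without CDCA replicate 3 (0.0318), after removal of the mitochondrial and rRNA rows (0.0423) and without the pair of libraries that stood apart (0.0218). DCA was above CA by 0.29 (CI 0.15 to 0.43, limma adjusted p = 0.0143), a call lost without DCA replicate 1 or 2 (limma adjusted p = 0.0654 and 0.0623). CDCA was above CA by 0.30 (CI 0.16 to 0.44), with a limma adjusted p of 0.270. It passed without the pair of libraries that stood apart (limma adjusted p = 0.0351), where 96 of all tested genes were higher and 343 lower. It also passed after removal of the mitochondrial and rRNA rows (limma adjusted p = 0.0420), where 2 were higher and 7 lower. Both settings were added after seeing the data.

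Otc, which makes citrulline, was at 51.5, 35.8 and 40.2 TPM in DMSO, at 50.1, 43.9 and 50.6 TPM in CA and at 34.7, 34.8 and 47.6 TPM in CDCA. In DCA it was at 66.8, 65.9 and 61.1 TPM, above every other library. Otc rose in DCA against DMSO by 0.61 (CI 0.30 to 0.91, limma adjusted p = 0.00474), a call that held in all 20 alternatives. In CA and CDCA it differed from DMSO by 0.19 (CI -0.11 to 0.50) and -0.12 (CI -0.42 to 0.19), and neither passed. The highest DMSO and CDCA values of Otc were those of DMSO replicate 1 and CDCA replicate 3. Without both, an alternative added after seeing the data, Otc passed in CA against DMSO at 0.33 (limma adjusted p = 0.0467). It also passed in CDCA against CA at -0.46 (limma adjusted p = 0.0194) and in DCA against CA (limma adjusted p = 0.00359). Over all tested genes, that alternative had 616 higher and 348 lower in CA against DMSO and 96 and 343 in CDCA against CA. With all libraries, DCA differed from CA by 0.42 (CI 0.11 to 0.72, limma adjusted p = 0.0640). Cps1 and Otc thus did not move together in CDCA: the ratio of Cps1 to Otc TPM was 9.84, 8.85 and 6.51 in CDCA and 4.10 to 6.02 over the other 9 libraries.

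Oat, the mitochondrial aminotransferase that links ornithine with glutamate and proline, was at 1049, 748 and 986 TPM in DMSO. It was at 1254, 994 and 1178 TPM in CA, at 933, 869 and 1193 TPM in CDCA and at 1715, 1754 and 1599 TPM in DCA. The DCA libraries were all above the other 9, while CA and CDCA overlapped with DMSO. Oat rose in DCA by 0.88 (CI 0.58 to 1.18, limma adjusted p = 0.000475) against DMSO, in all 20 alternatives, and by 0.57 (CI 0.27 to 0.87, limma adjusted p = 0.0192) against CA. The second call was lost without CA replicate 2, DCA replicate 1 or DCA replicate 2 (limma adjusted p up to 0.0837). CA differed from DMSO by 0.31 (CI 0.0096 to 0.61, limma adjusted p = 0.329) and CDCA by 0.11 (CI -0.19 to 0.41, limma adjusted p = 0.891).

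Upstream sequence was at hand for 5 of the 8 genes (Otc, Oat, Ass1, Odc1 and Sat1) in a table of RefSeq promoters on GRCm38.p6, a build other than the GRCm39 named for the deposited values. The 250 bases before the start of Otc and Oat are printed because these genes rose together under DCA. The window of Sat1, which also rose, is not printed. Capitals mark the letters AGTTCA on either strand, a variant of the hexamer that nuclear receptors bind, and in Oat also the letters CCAAT on either strand. The downstream CCAAT of Oat shares its last base with an AGTTCA on the opposite strand.
Otc (chrX:10252055-10252304, plus strand): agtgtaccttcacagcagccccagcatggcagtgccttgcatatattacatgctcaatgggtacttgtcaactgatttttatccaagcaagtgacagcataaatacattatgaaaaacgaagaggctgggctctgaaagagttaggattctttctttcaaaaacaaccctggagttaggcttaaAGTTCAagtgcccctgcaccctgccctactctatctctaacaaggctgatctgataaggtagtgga
Oat (chr7:132576399-132576648, minus strand): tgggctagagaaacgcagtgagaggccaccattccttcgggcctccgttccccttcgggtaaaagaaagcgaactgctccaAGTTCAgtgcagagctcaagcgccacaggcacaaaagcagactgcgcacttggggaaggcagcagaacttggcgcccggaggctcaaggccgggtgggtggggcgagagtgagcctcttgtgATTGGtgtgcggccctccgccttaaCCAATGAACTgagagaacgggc
Otc had 1 AGTTCA, beginning 66 bases before the start, and Oat had 2, beginning 169 and 18 bases before it, the second on the opposite strand. Oat also had CCAAT boxes beginning 47 and 22 bases before the start, the first on the opposite strand. The windows of Ass1, Odc1 and Sat1 held neither sequence, and of these genes Sat1 also rose in DCA against DMSO (0.24, limma adjusted p = 0.0361). Over the 32851 windows of the table, 11.8% held AGTTCA and 33.8% held CCAAT on either strand. The canonical hexamer AGGTCA was in 4607 of all windows and in 0 of these 5. The E-box CACGTG, searched because Odc1 is a textbook target of Myc, was in 6.0% of all windows, in the Ass1 window and not in that of Odc1. These are matches of letters, and no binding was measured.

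Ass1, argininosuccinate synthase, was at 13.8, 14.5 and 13.3 TPM in DMSO, at 12.3 to 12.7 TPM in CA, at 12.6 to 13.96 TPM in CDCA and at 12.2 to 12.9 TPM in DCA. CA and DCA lay below DMSO without overlap, by amounts that did not pass: -0.13 for both (CI -0.31 to 0.042 and -0.31 to 0.045, limma adjusted p = 0.473 and 0.222). After removal of mitochondrial and rRNA rows and rescaling, a choice made after seeing the data, Ass1 fell in DCA (-0.22, limma adjusted p = 0.0314). Asl, argininosuccinate lyase, was at 29.0, 37.8 and 42.2 TPM in DMSO and at 30.5 to 41.4 TPM over the acid-treated libraries. Its differences from DMSO were 0.096 (CI -0.19 to 0.38) for CA, -0.074 (CI -0.36 to 0.21) for CDCA and 0.049 (CI -0.23 to 0.33) for DCA, and all groups overlapped with DMSO. Neither gene of the steps from citrulline to arginine passed in the 5 comparisons of the deposited values, at Oat to Ass1 ratios of 51.4 to 76.2 in DMSO and 131 to 136 in DCA.

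Arg2, the mitochondrial arginase, was at 38.4, 17.4 and 16.5 TPM in DMSO and at 61.4, 39.3 and 51.4 TPM in CA. It was at 19.2, 21.8 and 48.8 TPM in CDCA and at 160, 162 and 123 TPM in DCA. The 3 DCA libraries thus lay far above all of the other 9. DMSO replicate 1 and CDCA replicate 3 held the high values of their groups, and every CA library lay above every DMSO library. Arg2 rose in DCA against DMSO by 2.66 (CI 1.84 to 3.49, limma adjusted p = 0.000418), with group means of 148 and 24.1 TPM, a ratio of 6.13. The call held in all 20 alternatives, and the value was 3.04 with DMSO replicate 1 and CDCA replicate 3 left out. The DCA and CDCA libraries served to choose Arg2, so its tests with either acid are not independent of that choice. DCA was above CA by 1.54 (CI 0.71 to 2.36, limma adjusted p = 0.0231), a call lost without CA replicate 2 or 3 or DCA replicate 1 or 2 (limma adjusted p up to 0.0929).

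For Arg2 the primary acids gave less certain values. CA differed from DMSO by 1.12 (CI 0.30 to 1.95, limma adjusted p = 0.203). The difference was 1.501 with DMSO replicate 1 and CDCA replicate 3 left out, a choice made after seeing the data (limma adjusted p = 0.000615). With them left out, 616 of all tested genes were higher and 348 lower in CA against DMSO. CDCA differed from DMSO by 0.28 (CI -0.54 to 1.11, limma adjusted p = 0.894) and from CA by -0.84 (CI -1.67 to -0.014, limma adjusted p = 0.681). Without those libraries, of which CDCA replicate 3 held the high CDCA value, the difference from CA was -1.24, given as a value only. Arg1, the cytosolic arginase of liver and of some macrophages, was at 0.0873 to 0.433 TPM and below the filter, so that nearly all arginase RNA in these libraries was that of Arg2.

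Odc1, ornithine decarboxylase, was at 91.8, 88.3 and 82.3 TPM in DMSO, at 92.9, 102 and 96.0 TPM in CA, at 118, 115 and 101 TPM in CDCA and at 82.8, 83.1 and 87.6 TPM in DCA. Its highest group mean was in CDCA, at 112 ± 9.14 against 97.0 ± 4.60 TPM in CA (SD, n = 3). The CDCA libraries lay above all DMSO libraries, by 0.35 (CI 0.18 to 0.52), with a limma adjusted p of 0.0771. Without CDCA replicate 3, the lowest of its group, the difference was 0.42 (limma adjusted p = 0.0437). DCA differed from DMSO by -0.048 (CI -0.22 to 0.12, limma adjusted p = 0.661) and from CA by -0.20 (CI -0.37 to -0.026, limma adjusted p = 0.111). The second difference passed in a fit of the 6 CA and DCA libraries alone (limma adjusted p = 0.0346).

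Sat1, the spermidine and spermine acetyltransferase, was at 133, 113 and 130 TPM in DMSO, at 151, 141 and 152 TPM in CA, at 156, 133 and 148 TPM in CDCA and at 147, 151 and 146 TPM in DCA. Its means of 148 ± 6.52, 146 ± 11.6 and 148 ± 2.73 TPM in the acids lay close together, above 126 ± 11.04 TPM in DMSO (SD, n = 3). Sat1 rose in DCA by 0.24 (CI 0.061 to 0.41, limma adjusted p = 0.0361). The differences of 0.24 in CA (CI 0.063 to 0.42, limma adjusted p = 0.201) and 0.21 in CDCA (CI 0.037 to 0.39, limma adjusted p = 0.391) were of about the same size and did not pass. The DCA call was lost in 8 of the 20 alternatives (limma adjusted p up to 0.133), among them any 1 DCA library or DMSO replicate 2 left out, and the difference was 0.14 after removal of mitochondrial and rRNA rows. With Odc1 at the DMSO level and Sat1 above it, the ratio of Sat1 to Odc1 was 1.66 to 1.82 in DCA, 1.28 to 1.58 in DMSO, 1.38 to 1.63 in CA and 1.15 to 1.46 in CDCA. The DCA ratios lay above those of every other library.

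In the contrast that chose the genes, DCA against CDCA, Arg2 was at 148 and 29.9 TPM, a ratio of 4.94, and the 3 and 3 libraries did not overlap. The same held for Oat, at a difference of 0.77, Otc at 0.73 and Odc1, which was lower in DCA, at -0.40. These are 4 of the 8 genes, where 48.4% of all tested genes had no overlap. Cps1 (-0.012), Sat1 (0.024), Ass1 (-0.083) and Asl (0.12) overlapped between DCA and CDCA.

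Arg2, Otc and Oat were highest in the libraries with the most RNA of absorptive cell markers. The summed level of 10 enterocyte markers (Alpi, Fabp1, Apoa1, Apoa4, Krt20, Lct, Sis, Anpep, Mttp and Slc5a1) was 2715, 1615 and 2476 TPM in DMSO, 4217, 2711 and 3448 TPM in CA, 1926, 1819 and 2932 TPM in CDCA and 6730, 7017 and 5183 TPM in DCA. DMSO replicate 1 and CDCA replicate 3 were the highest of their groups in these markers too, and DCA replicate 3, the lowest DCA library in Arg2, Oat and Otc, was the lowest DCA library here. DMSO replicate 3 did not follow for Arg2, at 16.5 TPM, the lowest of all, with a marker sum near that of replicate 1. Fabp1 made up most of the DCA sum, with means of 1036 TPM in DMSO and 3668 TPM in DCA, while Anpep was at 329 and 312 TPM. The 7 crypt stem cell markers ran the other way, at 367 to 814 TPM in DMSO and 100.4 to 116 TPM in DCA, and 8 markers of dividing cells were at 687 to 897 and 406 to 412 TPM. With the group means taken out, the correlation with the enterocyte sum over the 12 libraries was 0.97 for Oat, 0.87 for Otc and 0.81 for Arg2, and it was 0.69 for Sat1, 0.19 for Cps1, 0.15 for Ass1, 0.097 for Asl and -0.67 for Odc1. With the crypt stem cell sum it was -0.97 for Arg2, -0.91 for Otc and -0.70 for Oat, and with the dividing cell sum -0.90, -0.79 and -0.51. Each library gives both values of a pair, so these are descriptions. The part of cell makeup in the differences was not tested.

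**Figure D3:**
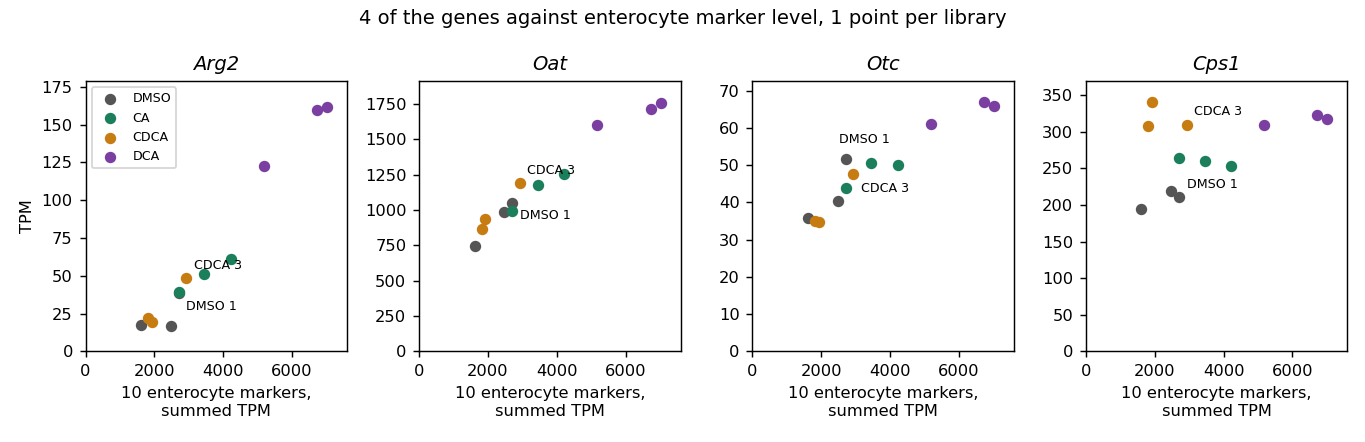
TPM of Arg2, Oat, Otc and Cps1 (vertical) against the summed TPM of 10 enterocyte markers (horizontal), both on linear axes from 0, with 1 point per library coloured by group and DMSO replicate 1 and CDCA replicate 3 named. Arg2, Oat and Otc follow the marker level across groups, while the CDCA libraries have Cps1 at 308 to 341 TPM at marker levels of 1819 to 2932 TPM, where DMSO has 195 to 219 TPM.

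The genes most like each of the 8 over the 12 libraries, by Pearson correlation of log2(TPM + 1) among 10968 candidates, differed between them. Those most like Arg2 were P4hb, a protein disulfide isomerase (r = 0.995), the gluconeogenic Fbp1 (0.995), the dipeptidase Dpep1 (0.994), the gamma-glutamyl transferase Ggt1 (0.994) and the alcohol dehydrogenase Adh1 (0.993). Ggt1 had means of 18.7 TPM in DMSO and 170 TPM in DCA, and Fbp1 of 37.6 and 120 TPM. Those most like Otc were Ugt2a3 (0.996), Aldh1a1 (0.991), the glucose transporter Slc2a2 (0.991), Ces2a (0.989) and Ugt2b5 (0.989), and those most like Oat were Hsd17b11 (0.993), Pank3 (0.991), Bpnt1 (0.989), Fam234a (0.989) and Gramd3 (0.989). Such values come from candidates ranked on the same 12 libraries, and groups that lie apart raise them. The levels of these genes therefore follow from how they were chosen, and no test of them is given.

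Cps1 had a different set. Its nearest genes were Vldlr (0.967), the mitochondrial co-chaperone Dnaja3 (0.967), the mitochondrial protease Lonp1 (0.958), the mitochondrial chaperone Hspa9 (0.954) and Angptl6 (0.945). Lonp1 was at 92.3 TPM in DMSO, 112 in CA, 141 in CDCA and 133 in DCA. Hspa9 was at 392, 443, 500.4 and 473 TPM in the same order, and Dnaja3 at 54.1, 61.4, 66.5 and 70.2 TPM. Sat1 was most like Opa1 (0.928), Nufip2 (0.924), the stress-response transcription factor Atf4 (0.914), Ccdc47 (0.910) and Manf (0.903). Odc1 was most like Steap1 (0.903), with means of 12.2 TPM in CDCA and 6.87 to 7.57 TPM in the other groups. The best values for Ass1 and Asl were 0.853 (Zfp709) and 0.901 (Mapkapk3).

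**Figure D4:**
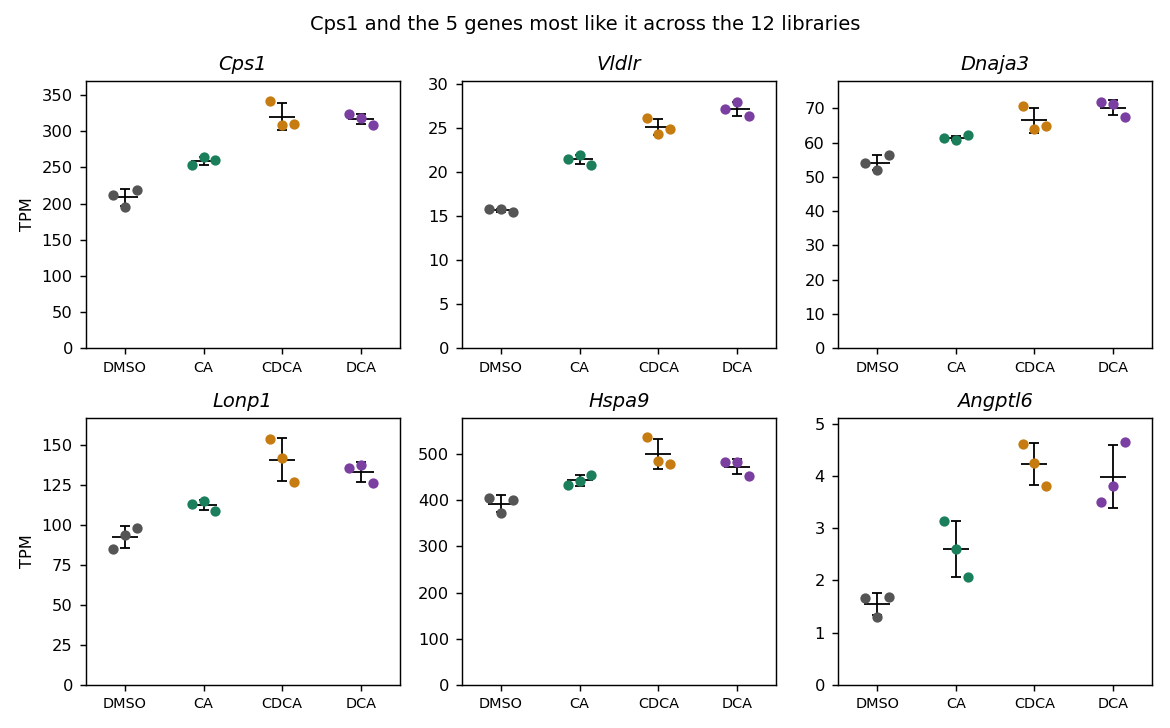
TPM of Cps1 and of the 5 genes most correlated with it in each library (linear axes from 0, points for libraries, black marks for mean ± SD, n = 3). In all 6 panels the CA, CDCA and DCA libraries lie above the DMSO libraries, a pattern on which the 5 genes were chosen.

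A list of 61 further genes of these pathways put the 8 in context, of which 49 passed the filter. In DCA against DMSO 16 of the 49 rose and 16 fell (median difference -0.093), beside the shares of 18.8% and 19.2% among all genes. After removal of mitochondrial and rRNA rows the split was 14 higher and 20 lower, and that over all genes 1913 and 3498, against 2245 and 2300 in the data as deposited. In CDCA against DMSO 1 of the 49 rose, beside 0.510% of all genes. In CA against DMSO and in CDCA against CA 0 passed in limma, beside 0.577% and 0.0335% of all genes. There 13 and 7 had an unadjusted p under 0.05, beside 1763 and 861 of the 11952 tested genes. In DCA against CA 6 were higher (Slc25a15, Aldh18a1, Gamt, Slc25a13, Slc7a9 and Slc3a1) and 5 lower (Amd1, Srm, Mat2a, Cad and Umps), beside 5.79% and 8.94% of all genes. These 11 calls became 2 to 17 with each library left out, where 199 to 889 of all tested genes were higher and 373 to 1429 lower. Slc25a15 and Gamt were called in 20 of 20 alternatives, Aldh18a1 and Srm in 16, Slc3a1 and Umps in 15, Cad in 12, Slc25a13 and Slc7a9 in 10, and Amd1 and Mat2a in 9.

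Genes that feed citrulline synthesis rose in 6 of 13 cases under DCA and fell in 3, beside 18.8% and 19.2% of all tested genes. Slc25a15, the carrier that brings ornithine into mitochondria, was at 60.2, 45.6 and 50.7 TPM in DMSO and at 103, 105 and 99.9 TPM in DCA, with no overlap (difference 0.97, CI 0.71 to 1.24, limma adjusted p = 0.000134). It was also higher in DCA than in CA, by 0.60 (limma adjusted p = 0.00902), and this call held in all 20 alternatives. Nags, whose product N-acetylglutamate activates Cps1, rose by 0.66 (limma adjusted p = 0.00315), and Aldh18a1, the synthase of the shared precursor of proline and ornithine, by 0.66 (limma adjusted p = 0.000375). The aspartate aminotransferases Got1 and Got2 rose by 0.48 and 0.20, the second a call lost in 15 of 20 alternatives. Gls2 (-0.70) and Aldh4a1 (-0.41) fell, calls lost in 11 and 5 of 20 alternatives.

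Of 7 tested genes around arginine (a nitric oxide synthase, a creatine synthesis gene, genes acting on agmatine or methylarginines, and aspartate carriers), 4 rose and 1 fell. The shares of all tested genes under DCA were 18.8% and 19.2%. The mitochondrial aspartate carriers Slc25a13 and Slc25a12 rose by 0.44 and 0.39 (limma adjusted p = 0.00203 and 0.0150). Gamt, an enzyme of creatine synthesis, rose by 1.20 against DMSO and 0.73 against CA (limma adjusted p = 3.99e-05 and 0.00451), while Gatm, which makes its substrate from arginine, was at most at 0.976 TPM and not tested. Nos2, the inducible nitric oxide synthase, was low, at 1.36, 1.35 and 1.78 TPM in DMSO and 2.68 to 5.17 TPM over the 9 acid-treated libraries. It rose in CDCA by 0.90 (limma adjusted p = 0.0421) and in DCA by 0.89 (limma adjusted p = 0.00192). The CDCA call was lost in 16 of 20 alternatives. Ddah2 fell in DCA (-0.64, limma adjusted p = 0.0314), a call lost in 6 of 20.

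Of 9 tested genes of polyamine synthesis, its methionine cycle and its control, 5 fell under DCA and 1 rose. Of all tested genes 19.2% fell and 18.8% rose. The 9 hold inhibitors as well as enzymes. Amd1, which makes the aminopropyl donor, was at 39.6, 42.8 and 53.5 TPM in DMSO and 25.4, 27.6 and 27.9 TPM in DCA (difference -0.72, CI -1.01 to -0.42, limma adjusted p = 0.00137). Its reads could be shared with the near-identical copy Amd2, listed at no more than 0.255 TPM. Srm, spermidine synthase, fell by 0.55 and Mat2a, which makes S-adenosylmethionine, by 0.55 (limma adjusted p = 0.00576 and 0.00971). Srm and Mat2a were also lower in DCA than in CA, by -0.54 and -0.49 (limma adjusted p = 0.0192 and 0.0400). Mtap, which salvages the methylthioadenosine left by polyamine synthesis, fell by 0.34. Oaz1, the antizyme that inhibits Odc1 protein, fell by 0.18, a call lost in 12 of 20. Azin1, the antizyme inhibitor that spares Odc1 protein, rose by 0.44 (limma adjusted p = 0.00667). Eif5a, the protein that carries the spermidine-derived residue hypusine, fell by 0.33 (limma adjusted p = 0.0118).

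Among 3 tested genes of polyamine breakdown, Aoc1, the diamine oxidase of enterocytes, was at 40.6, 22.6 and 22.1 TPM in DMSO and at 94.0, 97.7 and 83.9 TPM in DCA (difference 1.71, CI 1.03 to 2.39, limma adjusted p = 0.00140). Its CDCA values of 20.9, 23.7 and 51.2 TPM had the same high library, replicate 3, as Arg2. Smox, spermine oxidase, fell by 0.60 (limma adjusted p = 0.0147), and Paox differed by 0.047.

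Of 11 transporter genes 4 rose and 2 fell under DCA, beside 18.8% and 19.2% of all tested genes. Slc7a9 and Slc3a1, which form the apical carrier for arginine, ornithine, lysine and cystine, rose by 1.58 and 1.09 (limma adjusted p = 0.000356 and 0.000101), Slc7a9 from 20.6 ± 4.99 to 63.4 ± 11.3 TPM (SD, n = 3). Slc7a1, the arginine carrier of most dividing cells, fell by 0.26, and Slc7a6 by 0.75 (limma adjusted p = 0.0258 and 0.00814), the first a call lost in 4 of 20 alternatives. Slc3a2, the shared heavy chain of several amino acid carriers, rose by 0.25 and Slc18b1, a polyamine carrier, by 0.50, the second lost in 13 of 20 alternatives. Slc7a7, the basolateral arginine exporter, differed by 0.34 and did not pass. The listed genes of pyrimidine synthesis, which starts from carbamoyl phosphate made in the cytosol, all fell. Cad fell by 0.93, Umps by 0.75 and Dhodh by 0.70 (limma adjusted p = 0.00210, 0.000488 and 0.00634). Cps1 thus rose and Cad, which holds the cytosolic carbamoyl phosphate synthetase, fell in the same DCA libraries. As with Arg2, the summed enterocyte markers were at 5183 to 7017 TPM in DCA and 1615 to 2715 TPM in DMSO and those of dividing cells at 406 to 412 and 687 to 897 TPM. Their part in these list counts was not tested.

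**Figure D5:**
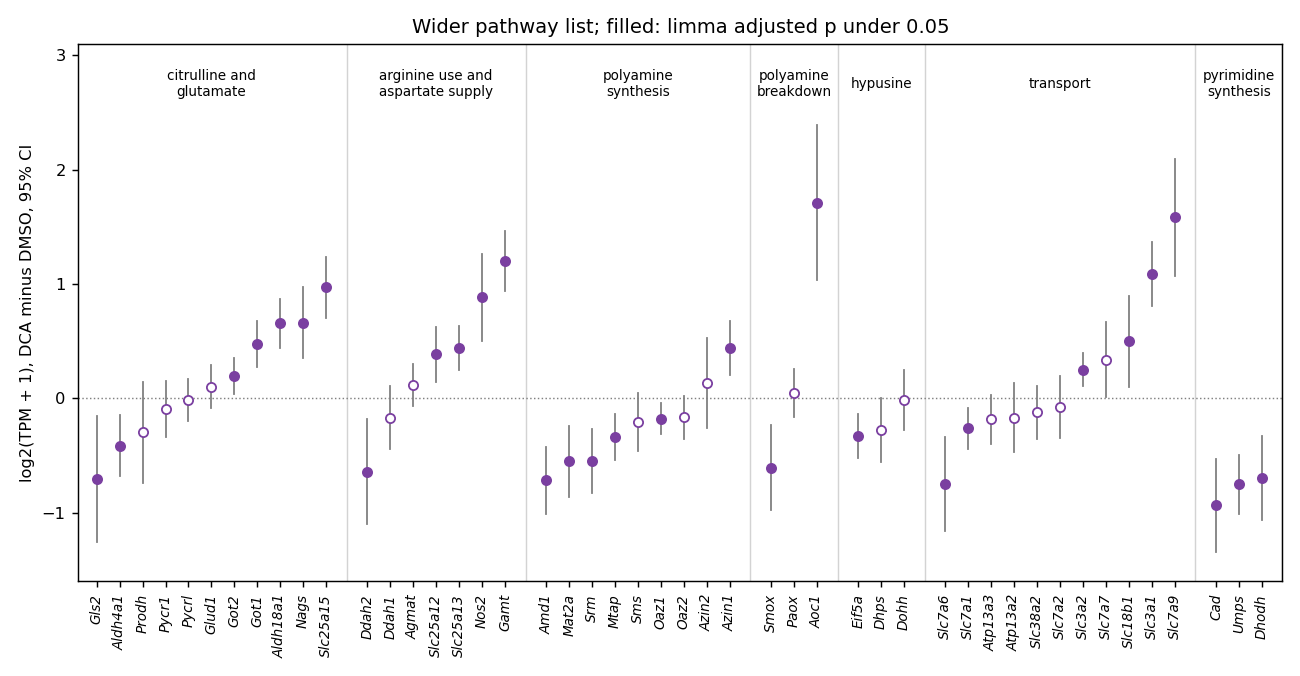
Difference in log2(TPM + 1), DCA minus DMSO, for 47 of the 49 tested genes of the wider list, grouped by role and ordered within each group, with 95% CI as lines and filled points where the limma adjusted p was under 0.05. Slc25a15, Gamt, Aoc1 and Slc7a9 are highest in their groups, and all 3 pyrimidine genes lie below 0.

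Between the acids, given at the same labelled dose and time, 2 pairs were tested. DCA, which lacks the B-ring hydroxyl of CA, had Arg2, Oat and Cps1 higher than CA. The Arg2 call is not independent of the choice of that gene. CDCA, which lacks the C-ring hydroxyl, differed from CA in 0 of the 8 by the test with all libraries. Without CDCA replicate 3 and DMSO replicate 1, a choice made after seeing the data, Cps1 and Otc passed. Arg2 passed there too, with the same limit on its choice. With all libraries the intervals were 0.16 to 0.44 for Cps1, -0.61 to -0.0048 for Otc, -1.67 to -0.014 for Arg2 and 0.030 to 0.37 for Odc1. For Sat1 the interval was -0.18 to 0.15 in CDCA against CA and -0.18 to 0.18 in DCA against CA. A difference that did not pass does not show that the acids act alike. The difference between these contrasts is DCA against CDCA, for which no test of the 8 genes is given because it chose them.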

How the data were processed

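RNA was measured in 12 libraries of mouse duodenal organoids (DMSO, CA, CDCA, DCA, 3 each). The authors deposited 1 table per library with 1 TPM value for each of 32587 gene symbols. The unit rests on the numbers themselves, which have decimals and sum to 889156 to 936841 per library. Poly(A) RNA was selected and libraries kept their strand, per the labels' protocols, and the submitters' processing notes name Salmon 1.8.0 and GRCm39. The annotation was not given in the sources used here, nor was the strand setting. Of 4802 rows with a mean of at least 20 TPM, 4 were at 0 in a library, so some zeros may be failed estimates.

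The 8 genes, the wider list and the tests were chosen with earlier results of these data known. Groups came from the labels. The 11952 rows that reached 1 TPM in 3 or more libraries were fitted as log2(TPM + 1) with limma 3.58.1 in R 4.3.3 (4 group means, mean-variance trend, robust moderation, two-sided, Benjamini-Hochberg at 0.05). The fit was tested on simulated data. Named genes were the 8, members of the list and the 5 most correlated genes of each member, predicted genes and pseudogenes left out. Pycr3 was found as Pycrl. Some members of the list enter its counts and are not reported here by name. Another 18 settings were run: each of 12 libraries left out, the filter dropped, scaling by median ratios, 0.1 as pseudocount, a block for the replicate number, moderation with neither trend nor robustness, and a fit of only the 6 libraries compared. The 2 added after seeing the data left out 13 mitochondrial and 2 rRNA rows with rescaling, or CDCA replicate 3 and DMSO replicate 1. DCA against CDCA was part of the fit, but no test of it is given for the 8 genes or the list, because it served to choose the 8.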

Additional observations from a re-analysis of the deposited data

How the results depend on the processing

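For DCA against DMSO, 4 to 5 of the 8 genes passed with each library left out. The counts of the 8 were 0 to 1 for CA and 1 to 2 for CDCA against DMSO. They were 0 for CDCA against CA and 0 to 4 for DCA against CA. For the wider list, in the same order, counts were 0 to 3, 0 to 1, 0 and 2 to 17. For DCA against DMSO the list had 24 to 33. Over all tested genes, with each library left out, 2 to 249 were higher and 0 to 20 lower in CA against DMSO. These ranges were 31 to 70 and 4 to 15 in CDCA against DMSO, and 1685 to 2540 and 1642 to 2804 in DCA against DMSO. They were 1 to 2 and 2 to 32 in CDCA against CA, and 199 to 889 and 373 to 1429 in DCA against CA. DCA against CA lost calls when single libraries were left out. Of the 8 genes 0 passed without DCA replicate 1 or DCA replicate 2 and 1 without CA replicate 2. Over all tested genes 199 were higher and 391 lower without DCA replicate 1, and 200 and 373 without DCA replicate 2. There were 206 and 391 without CA replicate 2, against 692 and 1069 with all libraries. Over the 20 alternatives the differences were 0.25 to 0.34 for Cps1, 0.47 to 0.64 for Oat and 1.37 to 1.69 for Arg2. In that comparison the wider list had 11 calls, 2 without DCA replicate 1, DCA replicate 2 or CA replicate 2, 3 without CA replicate 3, 6 without DCA replicate 3, 7 without CA replicate 1 or CDCA replicate 2, and 17 without CDCA replicate 3. It had 5 with no filter, beside 455 higher and 723 lower of all tested genes. With median-ratio scaling it had 17, beside 1190 and 1321, and with no trend and no robust moderation 7, beside 607 and 1012. When only the 6 CA and DCA libraries were fitted it had 21. In that smaller fit 5 of the 8 genes passed, and of all 11633 genes tested there 1299 were higher and 2115 lower. For CDCA against DMSO the list had 1 call, Nos2, and 0 without the filter, after median-ratio scaling or from its own 6 libraries. Without CDCA replicate 3 and DMSO replicate 1, a choice made after seeing the data, 3 of the 8 genes passed in CA against DMSO. In that setting 2 passed in CDCA against DMSO and 3 in CDCA against CA. The wider list had 10, 0 and 3 calls in the same order, and 19 for DCA against CA. Over all tested genes the setting gave 616 higher and 348 lower in CA against DMSO, against 68 and 1 with all libraries. In CDCA against CA it gave 96 higher and 343 lower, against 1 and 3. In DCA against CA it gave 1081 higher and 1749 lower, against 692 and 1069. After removal of mitochondrial and rRNA rows, 1 of the 8 passed in CA against DMSO and 1 in CDCA against CA, Cps1 in both. Over all tested genes that removal gave 47 higher and 3 lower in CA against DMSO and 2 higher and 7 lower in CDCA against CA. The cause of these changes was not tested, beyond fewer libraries or more genes entering the fit.

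The replicate numbers gave no sign of pairing the libraries. Deviations of same-numbered libraries correlated at -0.378 to 0.109 over 18 pairs, and 2 of 12 libraries correlated best with their own number. DMSO replicate 1 and CDCA replicate 3, which stood apart, enter these values, so a weak pairing could be missed. With the replicate block, calls were counted for CA, CDCA and DCA against DMSO, CDCA against CA and DCA against CA, in that order. The 8 genes gave 0, 1, 5, 0 and 3 and the wider list 0, 0, 27, 0 and 6. All tested genes gave 48, 38, 2125, 1 and 537 higher and 1, 7, 2009, 4 and 733 lower. No result reversed a called direction in the 20 alternatives.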
